A study of Rattus norvegicus with 14 samples.

Results

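A set of 10 genes of the circadian clock, Per1, Per2, Cry1, Clock, Dbp, Nr1d1, Nr1d2, Tef, Csnk1d and Csnk1e, was followed in peripheral blood mononuclear cells (PBMCs) of rats. They are 10 of the 14217 genes that the probe-to-gene table of the rat expression array names as the single symbol of a probe set, and they had 24 of the 31042 probe sets without controls. Csnk1d and Csnk1e, which encode casein kinases 1 delta and epsilon, were chosen because their signals were seen to differ between groups of these same arrays, so their levels are described with no test. The other 8 genes were taken for their place in the clock. Of the 24 probe sets, 21 passed the filter on low signal (above the median of the array on at least 2 of the 14 arrays) and were among the 18515 probe sets tested: 13 of the 8 clock genes and 8 of the 2 kinases. The 3 left out, 1369168_a_at and 1380098_at of Clock and 1369919_at of Tef, were above the median on 0 arrays.

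PBMCs of female Wistar rats were isolated on a Ficoll gradient and hybridised to 14 arrays. The groups were arthritic rats after 34 days of methotrexate and needle stimulation (MTXMS_A, n = 3), arthritic rats after 34 days of needle stimulation (MS_A, n = 3), healthy rats after 34 days of needle stimulation (NOCIAMS_A, n = 3), arthritic rats before therapy (CIA_B, n = 2) and healthy rats before therapy (NOCIA_B, n = 3). Arthritis was collagen-induced arthritis (CIA), raised with bovine type II collagen in adjuvant, methotrexate (MTX) is an antifolate used against rheumatoid arthritis, and the stimulation (MS), called acupuncture in the sample labels, was the insertion and turning of a short needle. The labels name the groups MTXAP, AP, HAP, RA and NORA, in the order above, and their match to the study's group codes is a reading made here. No group stayed unstimulated until day 34, so time and therapy cannot be told apart. Each rat was killed at sampling, so the arrays before and after therapy came from different animals. The hour at which blood was drawn is not given in the sources used here.

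The clock is a feedback loop in nearly every nucleated cell. CLOCK and its partner BMAL1 bind E-boxes and switch on the Per and Cry genes, whose proteins return to the nucleus and block CLOCK and BMAL1. Casein kinases 1 delta and epsilon phosphorylate the PER proteins and so set their stability and the pace of the loop. A second loop runs through the nuclear receptors REV-ERB alpha and beta (Nr1d1 and Nr1d2), which repress Bmal1, and ROR alpha (Rora), which activates it. DBP and TEF carry the rhythm to output genes through D-boxes. In blood leukocytes the clock is known for the daily rhythm of cell traffic, and Per1 is also induced directly by glucocorticoids.

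E-boxes are the letters that CLOCK and BMAL1 are known to bind and D-boxes those that DBP and TEF bind, so the stretches that hold them in the members' promoters are shown. RefSeq promoters (250 bases before to 50 after a start, build GRCr8) were matched for 8 of the 10 genes, in 10 promoters, and not for Cry1 and Csnk1d. Both strands were searched for the E-box CACGTG, the variant E-box CACGTT and the D-box TTATGTAA, which do not overlap in the stretches found. Capitals mark the motif, and each stretch runs 5′ to 3′ on the strand of the gene. The variant E-box of Nr1d1 is on the reverse strand and so reads AACGTG.

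Per2, variant E-box, minus strand, chr9:99497025-99497080: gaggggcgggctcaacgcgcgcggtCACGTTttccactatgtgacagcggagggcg
Per2, D-box, minus strand, chr9:99497153-99497210: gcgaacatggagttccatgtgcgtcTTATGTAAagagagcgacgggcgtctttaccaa
Nr1d1, downstream start, E-box, minus strand, chr10:84229615-84229670: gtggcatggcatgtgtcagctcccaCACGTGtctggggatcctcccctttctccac
Nr1d1, upstream start, variant E-box, minus strand, chr10:84231956-84232011: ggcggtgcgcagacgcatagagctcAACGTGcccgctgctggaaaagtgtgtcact
Tef, E-box, plus strand, chr7:115206604-115206659: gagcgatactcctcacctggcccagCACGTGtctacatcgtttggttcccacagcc

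The motifs start 62 and 192 bases before the start of Per2, 191 and 174 bases before the starts of Nr1d1, and 198 bases before the start of Tef. Of all 33469 promoters, 6.42% held CACGTG, 4.83% CACGTT and 0.893% TTATGTAA. The windows of Per1, Clock, Dbp, Nr1d2 and Csnk1e held 0 of these letter strings, which says only that the letters are not in this window. A match is a description of the sequence and not a measured binding site.

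All values are log2 of the MAS5 signal, a scale on which 1 unit is a doubling, and each array had been scaled by the authors to a trimmed mean of 500. Levels of different genes are not on a common scale and are not compared; where a gene has several probe sets, brighter means only a higher mean signal, which MAS5 measures more precisely. The members did not vary more from array to array than the rest: the median SD over the 14 arrays was 0.43 for the 21 member probe sets and 0.42 for all 18515 tested, with median ranges of 1.54 and 1.46.

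NOCIA_B replicate 3 and MTXMS_A replicate 3 had the lowest mean correlations with the other arrays, 0.855 and 0.882 against at most 0.934. Markers of T cells, B cells, NK cells and monocytes were present in all groups, and so were those of platelets and erythroid cells, which are not mononuclear cells. The platelet score, the mean deviation in log2 signal of 11 marker genes, lay between -0.95 and 0.57 in MTXMS_A, -0.04 and 0.76 in MS_A, -0.55 and -0.13 in NOCIAMS_A, -1.20 and -0.68 in CIA_B and -0.72 and 1.46 in NOCIA_B. The monocyte score of 7 genes lay between -1.31 and 0.14 in MTXMS_A, 0.15 and 1.02 in MS_A, -0.29 and 0.63 in NOCIAMS_A, -0.19 and -0.14 in CIA_B and -0.94 and 0.20 in NOCIA_B. The 11 platelet genes were above the array median on all 14 arrays and the 7 monocyte genes on at least 10, and no marker of either list was at 0. The score of 5 neutrophil marker genes lay between -0.93 and -0.17 in NOCIA_B, wholly lower than in CIA_B (0.24 to 0.33) and NOCIAMS_A (0.19 to 0.39). It lay between -0.31 and 1.25 in MS_A and between -0.95 and 0.90 in MTXMS_A. The part of the neutrophil score in the results was not tested. The erythroid score of 9 genes was -4.49 in MTXMS_A replicate 3 and 2.12 in NOCIA_B replicate 3, the lowest and highest of the 14 arrays. The ratio of the 3′ to the 5′ actin probe sets, a sign of RNA quality that is higher in degraded RNA, lay between 3.13 and 5.01 in MTXMS_A, 2.44 and 2.69 in MS_A, 3.35 and 4.36 in NOCIAMS_A, 2.77 and 2.83 in CIA_B and 1.97 and 3.01 in NOCIA_B. It was wholly lower in MS_A than in MTXMS_A, NOCIAMS_A and CIA_B. Clock 1390199_at, Per2 1378560_at and Csnk1e 1386693_at were wholly lower in MS_A than in the same groups. Cry1 and Nr1d2 1370541_at were wholly lower in MS_A than in MTXMS_A and CIA_B. The ratio was also wholly higher in NOCIAMS_A than in NOCIA_B, as were Per1, Csnk1d 1395914_at and Csnk1e 1386693_at. In MTXMS_A it was wholly higher than in CIA_B, as were Nr1d1 and Csnk1e 1384161_at. The part of the ratio in all these results was not tested. In such mixed samples fewer cells of a type and less RNA per cell cannot be told apart.

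No clock gene passed the adjusted test in any comparison. With limma and a Benjamini-Hochberg adjusted p of 0.05 over all 18515 probe sets, 0% were called in each of the 6 comparisons of groups and in the difference between the change after stimulation in arthritic and in healthy rats. At an unadjusted p of 0.05 there were 2746 probe sets in MTXMS_A against MS_A, 999 in MTXMS_A against CIA_B, 1450 in MS_A against CIA_B, 1052 in MS_A against NOCIAMS_A, 1144 in NOCIAMS_A against NOCIA_B, 1569 in CIA_B against NOCIA_B and 2423 in the difference. The same linear model without moderation called 5 in MTXMS_A against MS_A, 1 in MS_A against NOCIAMS_A and 0 in the others. The thresholds of the study's methods, an unadjusted p of 0.05 and a fold of 2, were therefore used as a second, looser rule.

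**Figure D1:**
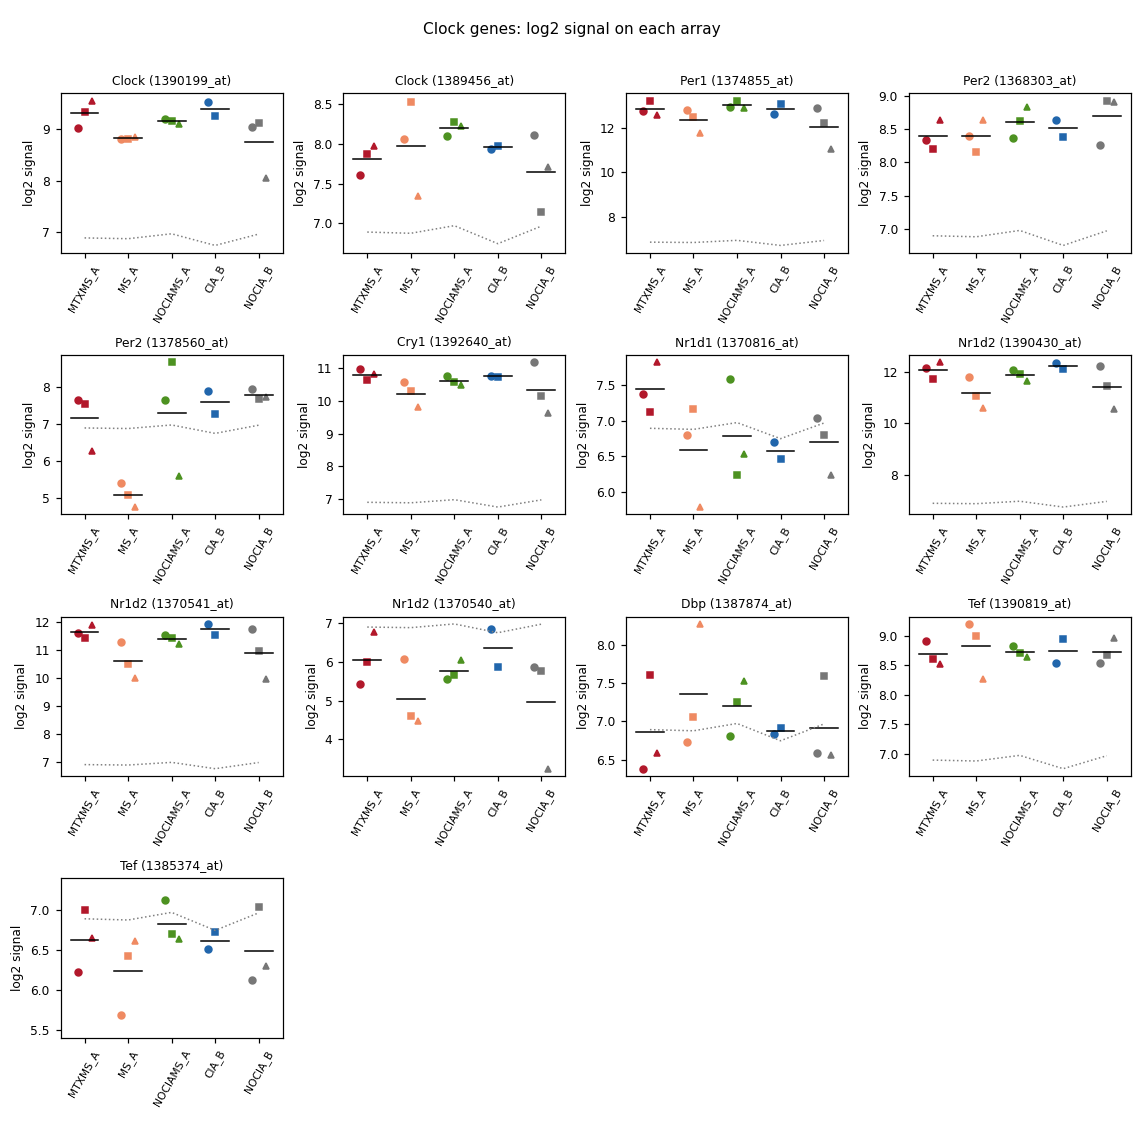
Log2 MAS5 signal (y axis) of the 13 tested probe sets of the 8 clock genes on the 14 arrays, by group (x axis). Circles, squares and triangles are replicates 1, 2 and 3, bars are group means and the dotted line is the group mean of the array medians; in the panels of Nr1d2 1370541_at and 1390430_at the 3 MS_A arrays all lie below both CIA_B arrays.

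Clock, the transcription factor at the head of the loop, was measured by 2 tested probe sets that did not move together (Pearson's r = 0.12 over the 14 arrays). The brighter, 1390199_at, read 9.03, 9.34 and 9.56 in MTXMS_A, 8.80, 8.82 and 8.85 in MS_A, 9.19, 9.17 and 9.11 in NOCIAMS_A, 9.54 and 9.26 in CIA_B and 9.05, 9.13 and 8.06 in NOCIA_B. The MS_A arrays lay below all arrays of MTXMS_A, NOCIAMS_A and CIA_B, and only NOCIA_B replicate 3 was lower. Its log2 fold change was 0.65 ± 0.30 (SE; adjusted p = 0.583) in CIA_B against NOCIA_B, and 0.31 without NOCIA_B replicate 3. The change after stimulation in arthritic rats minus that in healthy rats was -0.98 ± 0.40 (adjusted p = 0.360), and -0.64 without that array. With the platelet score as a covariate, an alternative added after the data were seen, these 2 values were 0.24 ± 0.32 and -0.38 ± 0.44. In MTXMS_A against MS_A it was 0.49 ± 0.27 (adjusted p = 0.412) and in MS_A against CIA_B -0.57 ± 0.30 (adjusted p = 0.616). The other probe set, 1389456_at, ranged between 7.14 and 8.52, and its groups overlapped in all 6 comparisons.

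Per1, a repressor of the loop with 1 probe set (1374855_at), read 12.74, 13.20 and 12.56 in MTXMS_A, 12.78, 12.48 and 11.75 in MS_A, 12.94, 13.17 and 12.88 in NOCIAMS_A, 12.62 and 13.04 in CIA_B and 12.86, 12.22 and 11.05 in NOCIA_B. The 3 NOCIAMS_A arrays lay above all NOCIA_B and all MS_A arrays, and the lowest value was again NOCIA_B replicate 3. The log2 fold change of NOCIAMS_A against NOCIA_B was 0.96 ± 0.41 (limma, unadjusted p = 0.0381, adjusted p = 0.747), and 0.46 without NOCIA_B replicate 3. The change after stimulation in arthritic rats minus that in healthy rats was -1.45 ± 0.61 (adjusted p = 0.364), and -0.95 without that array. With the platelet score as a covariate they were 0.59 ± 0.42 and -0.59 ± 0.73.

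Per2, the other period gene among the members, gave different answers by probe set. The brighter, 1368303_at, stayed between 8.15 and 8.93 on all 14 arrays, with log2 fold changes between -0.21 and -0.01 in the 6 comparisons. The dimmer, 1378560_at, read 7.64, 7.53 and 6.28 in MTXMS_A, 5.42, 5.09 and 4.77 in MS_A, 7.64, 8.66 and 5.60 in NOCIAMS_A, 7.90 and 7.26 in CIA_B and 7.95, 7.68 and 7.73 in NOCIA_B. The 3 MS_A arrays were the lowest of the 14, all below the median signal of their array, where MAS5 signals are imprecise. The log2 fold change was 2.06 ± 0.62 in MTXMS_A against MS_A (adjusted p = 0.207), -2.49 ± 0.70 in MS_A against CIA_B (adjusted p = 0.616) and -2.21 ± 0.62 in MS_A against NOCIAMS_A (adjusted p = 0.810). These 3 comparisons share the MS_A arrays. The 2 probe sets correlated at r = 0.07 over the 14 arrays, so the low MS_A values belong to 1 probe set of the gene.

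Cry1, the cryptochrome that represses CLOCK and BMAL1 together with the PER proteins, read 10.97, 10.64 and 10.81 in MTXMS_A, 10.57, 10.30 and 9.80 in MS_A, 10.76, 10.59 and 10.49 in NOCIAMS_A, 10.77 and 10.74 in CIA_B and 11.18, 10.15 and 9.64 in NOCIA_B. All MS_A arrays lay below all MTXMS_A and all CIA_B arrays, and the NOCIA_B arrays spanned the whole range. The log2 fold change was 0.58 ± 0.33 in MTXMS_A against MS_A (adjusted p = 0.437) and -0.53 ± 0.37 in MS_A against CIA_B (adjusted p = 0.663).

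Nr1d2, which encodes REV-ERB beta, differed between groups in the same way on both of its brighter probe sets. Probe set 1370541_at read 11.58, 11.40 and 11.88 in MTXMS_A, 11.27, 10.47 and 9.99 in MS_A, 11.52, 11.40 and 11.19 in NOCIAMS_A, 11.92 and 11.54 in CIA_B and 11.74, 10.94 and 9.96 in NOCIA_B. Probe set 1390430_at read 12.14, 11.71 and 12.36 in MTXMS_A, 11.80, 11.07 and 10.59 in MS_A, 12.06, 11.92 and 11.64 in NOCIAMS_A, 12.32 and 12.10 in CIA_B and 12.21, 11.44 and 10.54 in NOCIA_B. Both probe sets ranked the arrays almost alike (r = 0.993), with the 3 MS_A arrays below both CIA_B arrays.

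For 1370541_at the log2 fold change was 1.04 ± 0.41 in MTXMS_A against MS_A (unadjusted p = 0.0273, adjusted p = 0.287) and -1.15 ± 0.46 in MS_A against CIA_B (unadjusted p = 0.0294, adjusted p = 0.616). For 1390430_at it was 0.92 ± 0.40 (adjusted p = 0.320) in the first of these comparisons and -1.06 ± 0.45 (adjusted p = 0.616) in the second. The change after stimulation differed between arthritic and healthy rats by -1.64 ± 0.62 for 1370541_at and by -1.53 ± 0.60 for 1390430_at (adjusted p = 0.360 for each). Leaving out MS_A replicate 3, the lowest MS_A array, gave 0.75 in MTXMS_A against MS_A and -0.86 in MS_A against CIA_B for 1370541_at.

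The platelet score ran opposite to these values in MS_A and NOCIA_B: it was highest in MS_A replicate 3 within MS_A, at 0.76, and in NOCIA_B replicate 3 within NOCIA_B, at 1.46, the lowest Nr1d2 arrays of both groups. With the platelet score as a covariate, the log2 fold change of 1370541_at in MS_A against CIA_B was -0.33 ± 0.35. The difference between arthritic and healthy rats was then -0.22 ± 0.51. In MTXMS_A against MS_A it was 0.84 ± 0.26 (adjusted p = 0.177). The platelet scores of MS_A and CIA_B did not overlap, so score and group cannot be told apart where these groups are compared. The monocyte score also lay wholly higher in MS_A than in CIA_B and MTXMS_A. The NK cell score of 6 genes lay between -0.58 and -0.25 in MTXMS_A and between -0.08 and 1.05 in MS_A. The part of these 2 scores in the result was not tested. The third probe set, 1370540_at, above the array median on 2 of the 14 arrays, followed the other probe sets (r = 0.884 and 0.858) with a wider spread, between 3.24 and 6.84.

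Nr1d1, which encodes REV-ERB alpha, read 7.37, 7.12 and 7.82 in MTXMS_A, 6.80, 7.16 and 5.78 in MS_A, 7.58, 6.23 and 6.53 in NOCIAMS_A, 6.70 and 6.46 in CIA_B and 7.04, 6.80 and 6.24 in NOCIA_B, around the array median. All MTXMS_A arrays lay above both CIA_B arrays, with a log2 fold change of 0.86 ± 0.46 (adjusted p = 0.971). Within groups Nr1d1 and Nr1d2 had Pearson's r = 0.64 (permutation p = 0.0311, adjusted over 8 pairs 0.146) and Spearman's rho = 0.72 (permutation p = 0.0194, adjusted 0.155), which did not pass the adjustment. Without the 2 arrays farthest from the median of Nr1d1, r was 0.63 (permutation p = 0.162, adjusted 0.648) and rho 0.35 (permutation p = 0.417, adjusted 0.779).

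Dbp and Tef, the D-box factors, had no log2 fold change past an unadjusted p of 0.05. Dbp read 6.38, 7.61 and 6.59 in MTXMS_A, 6.73, 7.05 and 8.27 in MS_A, 6.80, 7.25 and 7.53 in NOCIAMS_A, 6.84 and 6.91 in CIA_B and 6.59, 7.60 and 6.56 in NOCIA_B, and all groups overlapped. Tef 1390819_at stayed between 8.27 and 9.20, with log2 fold changes between -0.14 and 0.10 in the 6 comparisons. Tef 1385374_at read 5.68, 6.42 and 6.61 in MS_A and 7.12, 6.70 and 6.64 in NOCIAMS_A, with no overlap and a log2 fold change of -0.58 ± 0.32 (adjusted p = 0.810). The 95% intervals of the log2 fold change of Dbp reached from -0.61 to 1.57 in MS_A against CIA_B, so a change of either sign could not be resolved with this number of arrays.

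**Figure D2:**
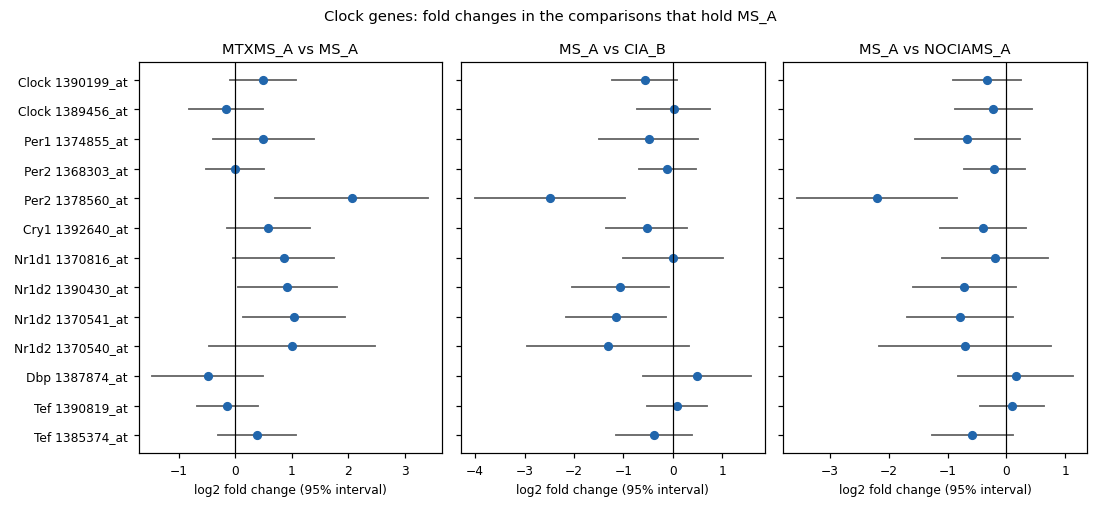
Log2 fold change (x axis, points) with its 95% interval (lines, limma, all 14 arrays in the fit) for the 13 clock probe sets (y axis) in the 3 comparisons that hold MS_A. The intervals of Per2 1378560_at leave out 0 in all 3 panels and those of Nr1d2 1370541_at and 1390430_at in the first 2, before adjustment.

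Counted together, the 13 clock probe sets passed the looser thresholds as follows. In MTXMS_A against MS_A, 2 were higher and 0 lower, against 4.5% of all probe sets called, and in MS_A against CIA_B 0 were higher and 3 lower, against 3.62%. In MS_A against NOCIAMS_A 1 was lower, against 1.87%. None passed in MTXMS_A against CIA_B, NOCIAMS_A against NOCIA_B or CIA_B against NOCIA_B, where 2.28%, 2.3% and 4.68% of all probe sets did. In the difference between arthritic and healthy rats 3 were lower, against 10.2%. The probe sets that passed belong to Per2 and Nr1d2, and in the difference to Nr1d2 and Per1, and where 3 passed, 2 of them were probe sets of Nr1d2.

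The share of clock probe sets in which groups did not overlap lay above that of all probe sets in some comparisons and below it in others. With 13 probe sets, 1 alone makes 7.69%. In MS_A against CIA_B 5 of 13 (38.5%) lay wholly lower, against 35.9% of all probe sets in either direction. The shares were 30.8% against 22.8% in MTXMS_A against MS_A, 30.8% against 17.9% in MS_A against NOCIAMS_A, 7.69% against 21.8% in MTXMS_A against CIA_B, 7.69% against 9.61% in NOCIAMS_A against NOCIA_B and 15.4% against 21% in CIA_B against NOCIA_B. The median log2 fold change of the 13 was 0.50 in MTXMS_A against MS_A, where that of all probe sets was -0.01. It was -0.49 in MS_A against CIA_B (all probe sets -0.01) and -0.39 in MS_A against NOCIAMS_A (all -0.05). It was -0.09 in MTXMS_A against CIA_B (all -0.02), 0.33 in NOCIAMS_A against NOCIA_B (all 0.09) and 0.31 in CIA_B against NOCIA_B (all 0.07).

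The other genes of the pathway were taken from a list of 28, of which 22 had a tested probe set, 36 in all. Past the looser thresholds were 4 (11.1%, all higher) in MTXMS_A against MS_A, where 4.5% of all probe sets were. In MTXMS_A against CIA_B 1 was higher (2.78%, against 2.28% of all), and in MS_A against CIA_B 2 were lower (5.56%, against 3.62%). In MS_A against NOCIAMS_A 1 was higher and 1 lower (5.56%, against 1.87%), in NOCIAMS_A against NOCIA_B 2 were lower (5.56%, against 2.3%) and in CIA_B against NOCIA_B 1 was higher (2.78%, against 4.68%). In the difference 1 was higher and 3 lower (11.1%, against 10.2%). These counts are of 1 to 4 probe sets and lay near the share of all probe sets in several comparisons. None passed the adjusted test.

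Rora, the activator that opposes the REV-ERB proteins, read 10.91, 10.48 and 11.06 in MTXMS_A, 9.74, 9.98 and 8.73 in MS_A, 9.50, 10.04 and 9.12 in NOCIAMS_A, 11.43 and 10.76 in CIA_B and 10.21, 9.84 and 8.003 in NOCIA_B. The MTXMS_A and CIA_B arrays lay above all others. The log2 fold change of Rora was 1.33 ± 0.53 in MTXMS_A against MS_A (adjusted p = 0.286), -1.61 ± 0.59 in MS_A against CIA_B (adjusted p = 0.616) and 1.75 ± 0.59 in CIA_B against NOCIA_B (adjusted p = 0.583). The last value of Rora was 1.07 without NOCIA_B replicate 3. With the platelet score as a covariate Rora had 1.11 ± 0.41 in MTXMS_A against MS_A, -0.72 ± 0.54 in MS_A against CIA_B and 0.69 ± 0.57 in CIA_B against NOCIA_B. Score and group cannot be told apart in the second of these values, as the platelet scores of MS_A and CIA_B did not overlap. Cry2, the second cryptochrome, read 10.98, 10.42 and 10.53 in MTXMS_A and 9.91, 9.23 and 9.06 in MS_A, a log2 fold change of 1.24 ± 0.35 (adjusted p = 0.197). Per3, the third period gene, had 3 MS_A arrays, at 7.66, 7.57 and 6.91, that all lay below the CIA_B arrays, at 8.38 and 8.35 (log2 fold change -0.99 ± 0.70, adjusted p = 0.666).

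Bmal1, the partner of CLOCK, stayed between 7.56 and 8.53. Usp2, a deubiquitinase of the clock, had a log2 fold change of 3.06 ± 0.85 in MTXMS_A against MS_A for 1387703_a_at (adjusted p = 0.196), where MS_A read 6.32, 3.27 and 3.06, all under the median signal of the array. The other tested probe set of Usp2, 1375549_at, had means of 6.23 in MTXMS_A and 4.70 in MS_A. In NOCIAMS_A and NOCIA_B its means were 4.26 and 6.99, whereas those of 1387703_a_at were 6.23 and 5.52, in the opposite order. Bhlhe41, a repressor that competes for E-boxes, had a log2 fold change of 1.47 ± 0.52 in MTXMS_A against MS_A (adjusted p = 0.250), with MTXMS_A replicate 3 at 9.27 and the other MTXMS_A arrays at 6.64 and 7.12, and it was 0.68 without that replicate. Gsk3b, a kinase that also acts on clock proteins, had a log2 fold change of 1.06 ± 0.32 in MS_A against NOCIAMS_A (adjusted p = 0.810) and -1.41 ± 0.32 in NOCIAMS_A against NOCIA_B (adjusted p = 0.747). Within each group but NOCIAMS_A, Gsk3b ranked the arrays in the same order as the platelet score. The platelet scores of MS_A (-0.04 to 0.76) and NOCIAMS_A (-0.55 to -0.13) did not overlap. Score and group therefore cannot be told apart in the first of these Gsk3b values.

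**Figure D3:**
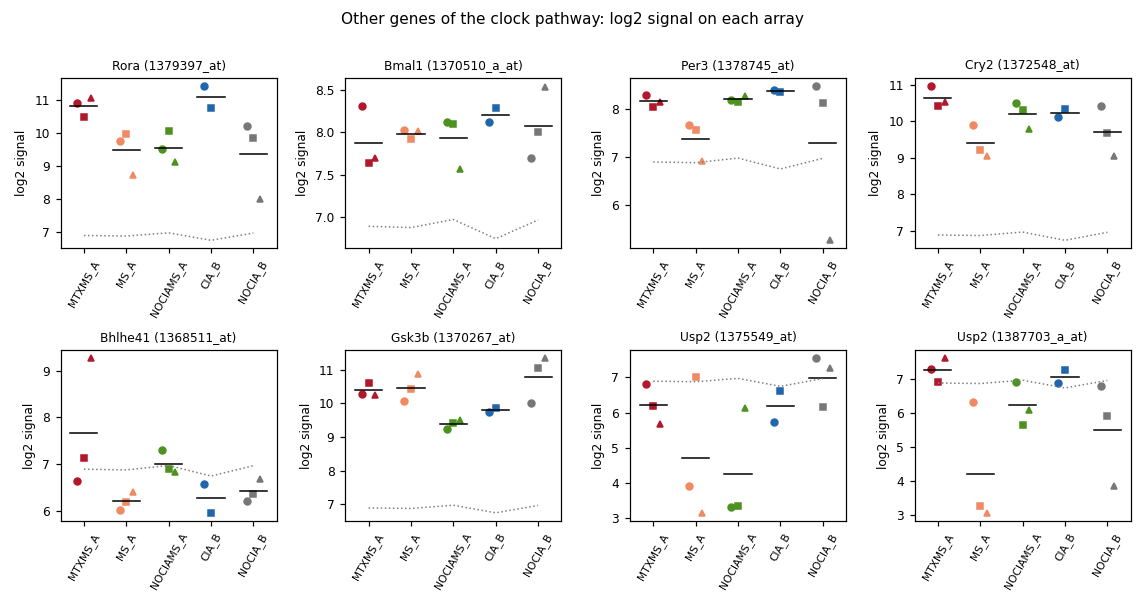
Log2 MAS5 signal (y axis) on the 14 arrays by group (x axis) of the clock pathway probe sets past an unadjusted p of 0.05 and a fold of 2 in any comparison, with Bmal1 and Per3 beside them as partners of the members. Symbols are replicates, bars group means and the dotted line the mean array median; the Rora arrays of MTXMS_A and CIA_B lie above those of the other 3 groups.

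Per1 is also a glucocorticoid target, and of the 9 tested probe sets of 6 glucocorticoid-responsive genes, Per1 among them, 1 passed the looser thresholds in a comparison of groups, MS_A against NOCIAMS_A, where 1.87% of all probe sets did. This was 1368147_at of Dusp1, a phosphatase gene, with a log2 fold change of 1.40 ± 0.36 (adjusted p = 0.810). The brighter probe set of Dusp1, 1368146_at, had 0.34 ± 0.39 (adjusted p = 0.861), and Per1 had -0.66 ± 0.41. In the difference between arthritic and healthy rats both probe sets of Fkbp5, a target of the glucocorticoid receptor, passed with 1.69 ± 0.64 and 2.08 ± 0.95 (adjusted p = 0.360 and 0.381), opposite in sign to Per1, in a comparison where 10.2% of all probe sets passed. The second of these, of 1380611_at, was 1.39 without MS_A replicate 3 and 1.35 ± 1.26 with the platelet score as a covariate. Among 10 probe sets of 7 immediate early genes the 3 of Jun, a subunit of AP-1, had log2 fold changes between 1.16 and 1.81 in MTXMS_A against MS_A (adjusted p between 0.187 and 0.207), where 4.5% of all probe sets passed. The smallest of them, of 1369788_s_at, was 0.71 without MTXMS_A replicate 2. Of the 10 immediate early probe sets, 5 were above 0 and 5 below 0 in MTXMS_A against MS_A, with a median of 0.08. In MTXMS_A against CIA_B 4 of the 10 immediate early probe sets were higher past the looser thresholds (40%, against 2.28% of all). In MS_A against CIA_B 1 was higher (10%, against 3.62%) and in NOCIAMS_A against NOCIA_B 1 was higher (10%, against 2.3%). In MS_A against NOCIAMS_A 1 was lower (10%, against 1.87%). None of these passed the adjusted test.

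The casein kinases 1 were chosen by their values on these arrays, and the values below are that description. Csnk1d had 5 probe sets. The one that differed, 1395914_at, read 6.60, 6.80 and 6.92 in MTXMS_A, 6.69, 7.12 and 6.93 in MS_A, 7.44, 7.51 and 7.63 in NOCIAMS_A, 6.76 and 6.99 in CIA_B and 6.46, 6.58 and 5.40 in NOCIA_B. The 3 NOCIAMS_A arrays were the highest of the 14 and the 3 NOCIA_B arrays the lowest. The log2 difference was -0.62 in MS_A against NOCIAMS_A, 1.38 in NOCIAMS_A against NOCIA_B and 0.73 in CIA_B against NOCIA_B, the last of which was 0.35 without NOCIA_B replicate 3 and 0.44 with the platelet score as a covariate.

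The other probe sets of Csnk1d did not show this order. The brightest, 1373332_at, read 11.18, 11.10 and 11.24 in MTXMS_A, 10.94, 11.13 and 11.26 in MS_A, 11.11, 11.32 and 11.24 in NOCIAMS_A, 11.08 and 11.25 in CIA_B and 11.35, 11.20 and 11.20 in NOCIA_B, a range of 0.41 over all arrays. In NOCIAMS_A against NOCIA_B the log2 differences of the other 4 probe sets lay between -0.29 and 0.06. Probe set 1395914_at correlated with them at r between -0.49 and 0.07 over the 14 arrays and was above the array median on 8 of them, while 1370527_a_at and 1370819_at, above it on all 14, correlated with each other at r = 0.791.

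Csnk1e had 3 probe sets. The brightest, 1384161_at, read 9.27, 9.44 and 9.96 in MTXMS_A, 9.24, 8.54 and 8.97 in MS_A, 9.49, 9.36 and 9.38 in NOCIAMS_A, 9.21 and 8.78 in CIA_B and 9.26, 9.64 and 8.94 in NOCIA_B. All MTXMS_A arrays lay above all MS_A and CIA_B arrays, with log2 differences of 0.64 and 0.56. The second of these was 0.36 without MTXMS_A replicate 3 and 0.35 without CIA_B replicate 2. In MS_A against NOCIAMS_A the log2 difference was -0.49, and -0.31 without MS_A replicate 2. Probe set 1386693_at read 7.06, 6.98 and 6.93 in MTXMS_A, 5.85, 6.09 and 6.50 in MS_A, 7.36, 7.45 and 6.92 in NOCIAMS_A, 6.98 and 6.72 in CIA_B and 6.15, 6.38 and 6.74 in NOCIA_B. The MS_A arrays lay below all MTXMS_A, NOCIAMS_A and CIA_B arrays. The log2 difference was 0.84 in MTXMS_A against MS_A, -0.70 in MS_A against CIA_B, -1.10 in MS_A against NOCIAMS_A and 0.82 in NOCIAMS_A against NOCIA_B. It was above the array median on 5 of the 14 arrays. The third, 1369804_a_at, overlapped between groups in all 6 comparisons, and the 3 probe sets correlated at r between 0.06 and 0.37.

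**Figure D4:**
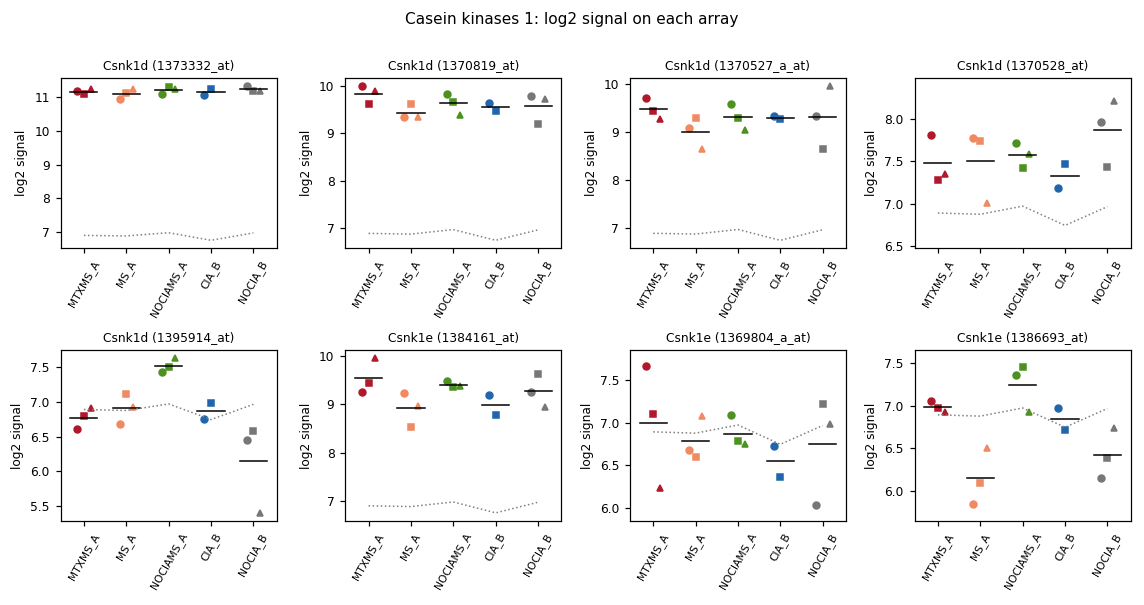
Log2 MAS5 signal (y axis) of the 8 probe sets of Csnk1d and Csnk1e on the 14 arrays by group (x axis), as a description. Symbols are replicates, bars group means and the dotted line the mean array median; Csnk1d 1373332_at spans 0.41, whereas 1395914_at runs from 5.40 to 7.63.

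Of all single-symbol genes, those whose probe set was most like Csnk1d 1395914_at over the 14 arrays were Acvr1 (r = 0.92), Deaf1 (r = 0.91) and Ift140 (r = 0.90). For Csnk1d 1373332_at they were Tgfbr3 (r = 0.77), LOC102548022 (r = 0.76) and Hyal3 (r = 0.74). For Csnk1e 1384161_at they were Taf1 (r = 0.83), Med13 (r = 0.81) and Ulk1 (r = 0.81), and for Csnk1e 1386693_at they were Rbm8a (r = 0.87), Cdk16 (r = 0.82) and Mtor (r = 0.80). The arrays of a pair share scaling and cell make-up.

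Within groups, the brightest probe sets of the kinases had r = -0.24 and rho = -0.20, given as a description. The r was -0.11 without the 2 arrays farthest from the median of Csnk1d, -0.50 with quantile normalization and -0.55 when the probe sets of each gene were averaged. Per1 and Per2 had r = -0.69 (permutation p = 0.0675, adjusted 0.146) and rho = -0.64 (p = 0.0666, adjusted 0.178), and r = -0.65 without those 2 arrays for Per1, but r was 0.058 when the probe sets of each gene were averaged. Dbp and Tef had r = -0.67 (permutation p = 0.0825, adjusted 0.146), Nr1d1 and Dbp r = -0.58 (p = 0.0916, adjusted 0.146), Clock and Nr1d1 r = 0.39 (p = 0.0769, adjusted 0.146), Per2 and Dbp r = 0.35 (p = 0.307, adjusted 0.410) and Clock and Cry1 r = 0.51 (p = 0.617, adjusted 0.617). The rho of these 5 pairs was -0.62, -0.57, 0.40, 0.43 and 0.12, with permutation p of 0.0628, 0.109, 0.138, 0.238 and 0.771 and adjusted p of 0.178, 0.217, 0.220, 0.318 and 0.771. Without the 2 arrays farthest from the median of the first gene, r was -0.34, -0.09, 0.23, 0.20 and -0.19, so the relations of Nr1d1 with Dbp and of Clock with Cry1 rest on those arrays. None of the 7 pairs of clock genes passed the adjustment, which was made over 8 pairs, that of the kinases included.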

How the data were processed

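RNA of rat PBMCs was hybridised to the Affymetrix rat230 2.0 array (14 arrays, 5 groups taken from the sample labels). The authors computed the deposited intensity of each probe set with MAS5 in affy (version not stated), and the values show scaling to a trimmed mean (2%) of 500; their detection calls were not used here. Median signal lay between 104.0 and 148.6. The number of arrays limits the precision. The log2 of the deposited intensity was fitted with limma 3.58.1 (R 4.3.3), 1 mean per group over all 14 arrays, on the 18515 probe sets above the array median on at least 2 arrays, with Benjamini-Hochberg adjusted p over all of them. The labels do not say whether the replicates of a group are separate rats, so p-values measure only the spread between these samples, which may be technical. Named genes were all members, fixed lists of other clock, glucocorticoid-responsive and immediate early genes, and the 3 genes most like each kinase; members and lists were chosen with earlier results of these data known. Probe sets with 1 symbol numbered 20826, with several 436 and with none 9780. Within-group correlations used the brightest probe set of each gene, centred on group means, with 100000 two-sided permutations within groups. After centring on group means, same-numbered arrays of different groups correlated at a mean r of 0.028 (26 pairs, -0.42 to 0.37). Arrays with other numbers had a mean r of -0.015 (52 pairs). With 2 or 3 arrays per group this cannot exclude that some numbers pair arrays, and the main fit used no pairing. Alternatives were quantile normalization, a pseudocount of 32, other filters, array weights, no moderation, a replicate block, only the compared groups and each array left out, and, added later, both outlying arrays left out and a platelet covariate. The fit was tested on simulated data.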

Additional observations from a re-analysis of the deposited data

Results flagged for a closer look

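Csnk1e 1386693_at was 1 result in which the change after needle stimulation ran in opposite directions in arthritic and healthy rats. All 3 MS_A arrays lay below both CIA_B arrays and all 3 NOCIAMS_A arrays above all NOCIA_B arrays, and the change in arthritic rats minus that in healthy rats was -1.52 on the log2 scale. The difference was not tested, because the gene was chosen by its values on these arrays. The other probe sets of Csnk1e gave -0.21 (1384161_at) and 0.11 (1369804_a_at) for the same quantity. Of all probe sets, 35.9% did not overlap in MS_A against CIA_B and 9.61% in NOCIAMS_A against NOCIA_B, in either direction. Probe set 1386693_at was above the array median on 0 of the 3 MS_A arrays and 0 of the 3 NOCIA_B arrays. Opposite signs were not particular to it: the median log2 fold change of the clock probe sets was -0.49 in MS_A against CIA_B and 0.33 in NOCIAMS_A against NOCIA_B. Nr1d2 1370541_at had -1.15 and 0.49, whereas Dbp had 0.48 and 0.28. The actin ratio also lay wholly lower in the first comparison and wholly higher in the second, and its part was not tested.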

How the results depend on the processing

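Limits: groups held 2 or 3 arrays, time and therapy changed together, and probe sets near the array median are imprecise. The samples also held markers of platelets, red cells and neutrophils. Under the thresholds of the methods the calls were 833 in MTXMS_A against MS_A, 423 in MTXMS_A against CIA_B, 670 in MS_A against CIA_B, 347 in MS_A against NOCIAMS_A, 426 in NOCIAMS_A against NOCIA_B, 866 in CIA_B against NOCIA_B and 1886 in the difference, against 0 in each by adjusted p. Array weights gave 2 in MTXMS_A against MS_A, 1 in NOCIAMS_A against NOCIA_B, 765 in CIA_B against NOCIA_B and 1651 in the difference. No moderation gave 5 in MTXMS_A against MS_A and 1 in MS_A against NOCIAMS_A. No filter on low values, and likewise only the groups compared, gave 1 in MS_A against CIA_B. Leaving out 1 array gave 0 to 1 in MTXMS_A against MS_A, 0 to 13 in MTXMS_A against CIA_B, 0 to 4 in MS_A against CIA_B and in NOCIAMS_A against NOCIA_B, 0 to 168 in CIA_B against NOCIA_B and 0 to 980 in the difference, both highest without NOCIA_B replicate 1. The cause was not tested. With array weights the difference between arthritic and healthy rats passed the adjusted test for Nr1d2 1370541_at (-1.57) and 1390430_at (-1.48). The 13 clock fold changes with an unadjusted p under 0.05 in the main fit had 312 alternatives, none of which took another probe set. All 312 kept their direction, which says little as the 13 were picked by that p. Besides the Nr1d2 values above, the other 310 kept their side of the adjusted threshold, which says little as none had passed it. In MTXMS_A against MS_A Per2 had 2.06 on 1378560_at and -0.01 on the brighter 1368303_at. An unadjusted p under 0.05 was met in 24 of 24 alternatives for each of the 3 values of Per2 1378560_at, in 19 to 21 for Nr1d2 1370541_at, 12 to 18 for Nr1d2 1390430_at, 15 and 16 for Per1, and 4 (CIA_B against NOCIA_B) and 20 (the difference) for Clock 1390199_at. With the replicate block 0 probe sets were called in each comparison, and Nr1d2 1370541_at had -0.97 in MS_A against CIA_B. The labels do not say whether equal replicate numbers link arrays. With probe sets averaged, r was 0.058 for Per1 and Per2, 0.22 for Dbp and Tef and -0.11 for Per2 and Dbp, and without the 2 farthest arrays it was -0.19 for Clock and Cry1, each of the opposite sign. Of 206 alternatives of 10 kinase differences, 23 moved by more than the replicate spread, all on taking another probe set. Most of the 206 kept the probe set, so the 23 are not to be read against all of them. Where another probe set of the gene was taken, the difference moved in most cases.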
